A study of Mus musculus with 6 samples.

Results

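The 10 genes described here serve the presentation of antigen by dendritic cells and Langerhans cells in skin, and were picked by gene symbol from the 35275 genes of the deposited tables. They are the class II genes of the major histocompatibility complex H2-Aa, H2-Ab1 and H2-Eb1, their invariant chain Cd74, their transactivator Ciita, and the cell markers Cd207, Itgax, Flt3, Ccr7 and Mgl2. All 10 were found, and all 10 had enough counts to be among the 15720 genes tested. The RNA is described as coming from the isolated epithelial part of the back skin of C57BL/6 mice. There were 3 libraries from animals without interleukin-33 (IL-33 KO, the knockout) and 3 libraries from wild-type animals (WT). Both genotypes had received 0.25% dinitrofluorobenzene (DNFB, a contact allergen) in a mixture of acetone and olive oil on the back, 3 times a week over 22 days, so every library is from allergen-treated skin and none from untreated skin. The design asked which genes differ between the genotypes in chronic skin inflammation. The sources used here give neither the knockout allele nor the age and sex of the mice. The labels number the libraries within each genotype without stating that each came from its own animal, so p-values refer to the spread between libraries, which may be technical.

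Class II molecules are pairs of an alpha and a beta chain that carry peptides from engulfed proteins to the surface of dendritic cells, macrophages and B cells, where CD4+ T cells read them. The invariant chain CD74 escorts new class II pairs and blocks their groove until they reach the compartment where peptides are loaded. CIITA, the class II transactivator, binds no DNA itself and works through factors that sit on the shared X and Y boxes of class II promoters. Langerhans cells are the resident antigen-presenting cells of the epidermis, which carry langerin (CD207) and can leave for the lymph node by means of the chemokine receptor CCR7. Interleukin-33 is an alarm cytokine that epithelial cells store in the nucleus, and dendritic cells are among the cells known to respond to it.

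Depth ran from 20459574 to 24359612 counts per library. Il33 itself had 21, 22 and 11 counts in the knockout libraries and 3906, 3086 and 2817 counts in the WT libraries, as the labels name them. The labelled tissue carried its markers, since 6 keratinocyte genes summed to 28624 to 64455 CPM per library (CPM, counts relative to library size, which was scaled by the trimmed mean of M-values, TMM). Genes of dermal fibroblasts were abundant too, 7 of them summing to 11946 to 22836 CPM, beside the epithelial part that the labels name. Among other skin structures, 12 hair follicle genes summed to 10617 to 22105 CPM in the knockout and 2697 to 6057 CPM in WT, without overlap. The 8 skeletal muscle genes summed to 116 and 246 CPM in IL-33 KO 1 and IL-33 KO 3, against 12.2 CPM in IL-33 KO 2 and at most 9.08 CPM in WT. The 8 adipocyte genes summed to 759 to 1065 CPM in the knockout and 172 to 808 CPM in WT. In these 5 lists 0 genes passed in edgeR, the smallest p in each belonging to Krt15 and Krt14, Mmp2 and Lum, Krt72 and Dlx3, Acta1 and Ryr1, and Retn and Lpl (adjusted p 0.125 to 0.666). The part of these structures in the values below was not tested. In such bulk tissue, fewer cells of a type and less RNA per cell cannot be told apart.

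The promoters of class II genes are shown first because their shared boxes are how CIITA reaches them. The class II genes also followed each other across the libraries, and a link between the boxes and those levels was not tested. The RefSeq promoter table of build GRCm38.p6, the same assembly as mm10, matched 6 of the 10 genes. H2-Ab1, Cd74, Ciita and Ccr7 were not matched. Each line below gives 150 bases that end just before the gene, 5′ to 3′ on the coding strand, with the searched letters in capitals. H2-Aa (chr17:34287828-34287977, minus strand) and H2-Eb1 (chr17:34305717-34305866, plus strand) are members. H2-Eb2 (chr17:34325515-34325664, plus strand) and H2-Ob (chr17:34238753-34238902, plus strand) are class II genes outside the 10, and Cd207 (chr6:83677858-83678007, minus strand) is shown as a marker gene in which none of the searched letters were found.
H2-Aa: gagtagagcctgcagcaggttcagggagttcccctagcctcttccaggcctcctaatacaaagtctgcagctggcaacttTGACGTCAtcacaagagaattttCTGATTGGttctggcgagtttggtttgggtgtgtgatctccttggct
H2-Eb1: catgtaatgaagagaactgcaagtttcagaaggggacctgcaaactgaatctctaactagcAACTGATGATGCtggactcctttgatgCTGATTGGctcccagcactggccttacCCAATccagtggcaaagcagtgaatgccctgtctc
H2-Eb2: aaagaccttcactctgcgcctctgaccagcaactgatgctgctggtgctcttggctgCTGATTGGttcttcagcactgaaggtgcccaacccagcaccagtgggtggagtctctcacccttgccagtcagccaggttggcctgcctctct
H2-Ob: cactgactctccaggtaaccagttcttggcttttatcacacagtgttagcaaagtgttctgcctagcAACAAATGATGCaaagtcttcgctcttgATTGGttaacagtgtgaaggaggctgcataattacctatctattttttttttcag
Cd207: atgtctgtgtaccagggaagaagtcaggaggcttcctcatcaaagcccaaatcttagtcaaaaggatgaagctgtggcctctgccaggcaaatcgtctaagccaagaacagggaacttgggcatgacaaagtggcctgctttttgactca

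The letters searched on both strands were CTGATTGG for the Y box and its contained core ATTGG, and, chosen after the sequences were seen, AAC, any 2 bases and ATGATGC for the X box, and TGACGTCA, the cyclic AMP response element, which resembles the downstream end of an X box. Over all 32851 RefSeq promoter windows of 300 bases, 4.10% held CTGATTGG, 37.4% held ATTGG, 0.0396% held the X box letters and 1.79% held TGACGTCA. H2-Aa carried the full Y box from 51 bases before its start and TGACGTCA from 74 bases before it. H2-Eb1 carried the X box letters from 89 bases and the Y box from 62 bases before its start, and a reverse copy of the core further down. Of the 6 genes for other class II chains and loading, H2-Ob, H2-DMb1 and H2-DMb2 carried the X box letters and the Y box core, and H2-Eb2 and H2-Oa the full Y box. H2-DMa had 2 promoter windows, one with none of these letters and one with the core ATTGG alone. Mgl2 and Itgax held the core ATTGG alone, and Flt3 and Cd207 held none of these. The interferon response core (GAAA, any 2 bases, GAAA), held by 3.44% of all windows, was not among the letters of the 6 members' windows. These matches describe letters and do not show binding.

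None of the 10 antigen presentation genes differed between IL-33 KO and WT skin beyond the spread between libraries. In edgeR's quasi-likelihood test 0 of 10 passed an adjusted p of 0.05, where 0.0191% of all genes tested passed. DESeq2 and limma-voom also passed 0 of 10, where 1.26% of all genes passed in DESeq2 and 11 of 15720 in limma-voom. At an unadjusted p under 0.05 there were likewise 0 of 10, beside 9.02% of all genes, and the genotypes overlapped in all 10, whereas 13.9% of all genes showed no overlap (7.46% with the knockout higher and 6.47% with it lower). The log2 fold change (IL-33 KO over WT) was below 0 in 9 of the 10 and, with total counts or other scalings, in 7, where H2-Ab1 and Cd74 turned to slightly above 0. The median was -0.14 against -0.01 over all genes tested, where 48% lay above 0. For so few genes, counts of 0 of 10 are near the shares of all genes and do not set the members apart. Failing to pass did not require a small difference either, as 0 of 12 hair follicle genes passed at a median log2 fold change of 1.84.

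**Figure D1:**
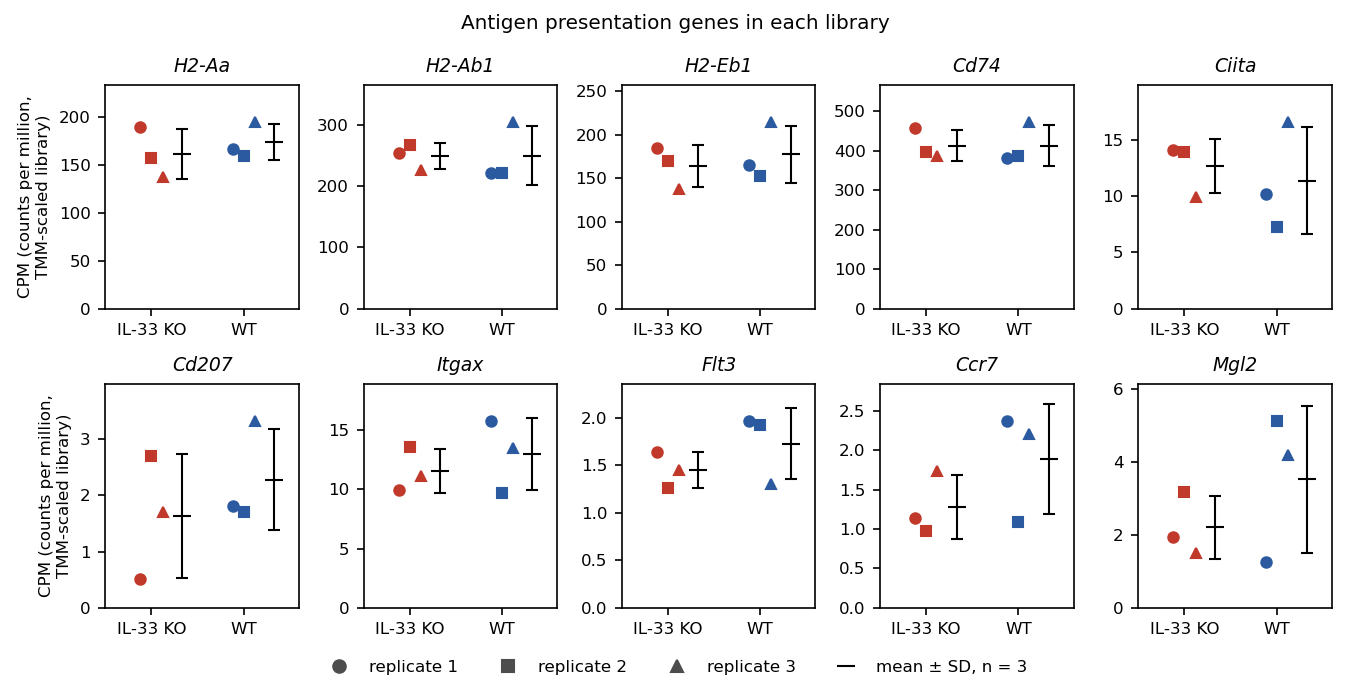
CPM of each of the 10 genes (y axis, linear from 0) in the 3 IL-33 KO and 3 WT libraries (x axis), with replicate number as the marker shape and the mean ± SD of each genotype in black. In every panel the ranges of the genotypes overlap, and WT 3 is the highest library for all 5 class II genes in the upper row.

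The class II chain genes were strongly expressed in both genotypes, with differences between them of less than the spread between libraries. H2-Aa, the alpha chain of the I-A molecule (ENSMUSG00000036594, chromosome 17, 34282744 to 34287827, minus strand, mm10), stood at 189.8, 157 and 138 CPM in IL-33 KO 1 to 3 and 167, 159.6 and 195 CPM in WT 1, 2 and 3. WT 3 and IL-33 KO 1 were the high libraries and IL-33 KO 3 the low one. The means were 161 ± 26.4 and 174 ± 18.6 CPM (SD, n = 3 each), which gave a log2 fold change of -0.11 ± 0.16 (SE; edgeR adjusted p = 0.846). H2-Ab1, the beta chain that pairs with it (ENSMUSG00000073421, chromosome 17, 34263209 to 34269418, plus strand), was measured at 254, 268 and 226 CPM in the knockout libraries and 222, 222 and 305 CPM in the WT libraries. WT 1 and WT 2 were nearly equal and lay below all 3 knockout libraries, while WT 3 lay above them all. Its means were 249 ± 21.5 and 249.9 ± 48.0 CPM, and its log2 fold change was -0.0026 ± 0.16 (edgeR adjusted p = 0.997).

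H2-Eb1, the beta chain of the I-E molecule (ENSMUSG00000060586, chromosome 17, 34305877 to 34316199, plus strand), had 184, 169.6 and 138 CPM in the knockout libraries and 165, 153 and 215 CPM in the WT libraries. C57BL/6 mice carry a defective gene for the partner alpha chain and so lack I-E on the cell surface, but they transcribe H2-Eb1. WT 3 was again the highest library and IL-33 KO 3 the lowest. The means were 164 ± 23.7 and 177 ± 32.8 CPM and the log2 fold change was -0.11 ± 0.17 (edgeR adjusted p = 0.852). The interval of the difference bounds what these libraries leave possible. The 95% interval of the IL-33 KO to WT ratio ran from 0.725 to 1.19 for H2-Aa, from 0.768 to 1.30 for H2-Ab1 and from 0.700 to 1.22 for H2-Eb1, so a doubling or a halving lies outside all of them. The sign for the beta chains was not stable: without WT 3 the log2 fold change was 0.17 for H2-Ab1 and 0.045 for H2-Eb1, and without IL-33 KO 3 it was 0.063 for H2-Ab1, with 0 of the 10 genes passing.

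Cd74, the invariant chain (ENSMUSG00000024610, chromosome 18, 60803848 to 60812646, plus strand), was the most abundant of the 10 genes per length and had, with H2-Ab1, a difference close to 0. It was counted at 458, 396 and 387 CPM in the knockout libraries and 381, 386 and 474 CPM in the WT libraries. IL-33 KO 1 and WT 3 stood above the other 4 libraries, which lay close together. Means of 414 ± 39.0 CPM in the knockout and 414 ± 52.0 CPM in WT gave a 95% interval of the ratio from 0.788 to 1.27 (edgeR adjusted p = 1.000). Ciita, the transactivator that governs the genes above (ENSMUSG00000022504, chromosome 16, 10488178 to 10527564, plus strand), was the single member with a log2 fold change above 0. It was at 14.1, 14.0 and 9.92 CPM in the knockout libraries and 10.2, 7.29 and 16.6 CPM in the WT libraries. IL-33 KO 1 and IL-33 KO 2 were alike, and the WT libraries spread over both sides of the IL-33 KO range. For Ciita edgeR gave 0.16 ± 0.30 (log2 fold change ± SE, adjusted p 0.882), and the 95% interval of the ratio, 0.690 to 1.80, was wider than for its target genes. Without WT 2 the Ciita log2 fold change was -0.080, and without WT 3 it was 0.54, neither passing.

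**Figure D2:**
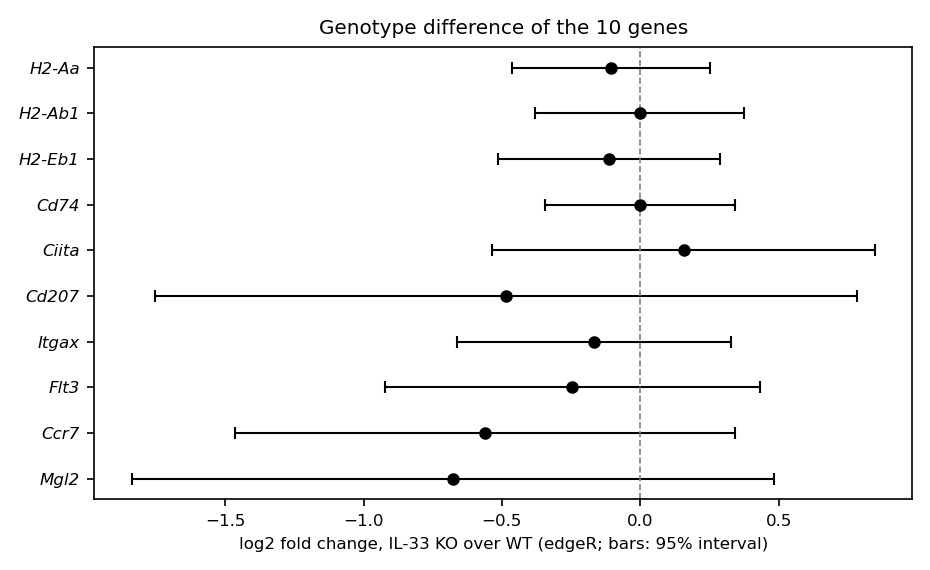
Log2 fold change of IL-33 KO over WT (x axis) for each of the 10 genes (y axis), with points for the edgeR estimate and bars for its 95% interval. Every bar crosses the dashed line at 0, and the bars of H2-Aa, H2-Ab1, H2-Eb1 and Cd74 are the narrowest.

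Per length, in deposited FPKM (counts scaled by gene length and library total), the members fell into abundant and scarce genes. Cd74 averaged 295 ± 44.5 FPKM over the 6 libraries (SD), H2-Ab1 207 ± 36.4, H2-Aa 149 ± 24.995 and H2-Eb1 145 ± 28.4 FPKM. In each library Cd74 was above H2-Ab1 and H2-Ab1 above H2-Aa, whereas H2-Aa and H2-Eb1 did not differ beyond their spread. These 4 genes lay above 97.0% of all genes tested. The other 6 members were all under 4 FPKM in every library: Itgax averaged 3.02, Ciita 2.31, Mgl2 1.74, Cd207 1.28, Ccr7 0.800 and Flt3 0.302 FPKM. Among Itgax, Ciita, Mgl2, Cd207 and Ccr7, each neighbour in this order overlapped the next, while every Flt3 value lay below every Ccr7 value.

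The proportions among the class II chain transcripts and Cd74 held within narrow bounds in each library. H2-Ab1 FPKM divided by Cd74 FPKM ranged from 0.645 to 0.789, with means of 0.705 ± 0.0748 in the knockout against 0.700 ± 0.0442 in WT (SD, n = 3 each; exact permutation p = 0.8, two-sided). The same ratio was 0.444 to 0.544 for H2-Aa (exact permutation p = 0.3) and 0.425 to 0.540 for H2-Eb1 (exact permutation p = 0.4). The smallest p that 3 against 3 libraries allow is 0.1. These 3 unadjusted tests are from 15 ratios that were computed. Langerin did not keep such a proportion, as Cd207 over Cd74 ran from 0.00102 in IL-33 KO 1 to 0.00644 in WT 3. Cd207 had only 12 to 84 counts per library, so counting error widens its range. Ciita over Cd74 ran from 0.00507 in WT 2 to 0.00946 in IL-33 KO 2. The level of Cd74 itself in its highest library was 1.24 times that in its lowest, in CPM. Against Ptprc, the CD45 gene carried by all leukocytes, Cd74 stood at 28.1, 26.9 and 28.0 in the knockout libraries and 21.3, 39.4 and 26.8 in WT. The knockout libraries were close together on that ratio, with WT 1 below them and WT 2 above.

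**Figure D3:**
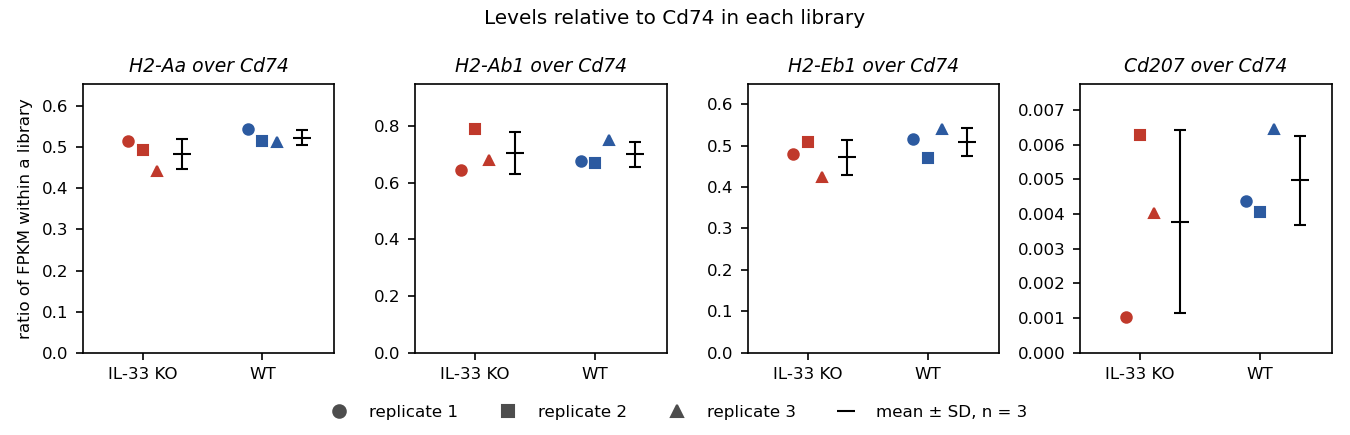
FPKM of H2-Aa, H2-Ab1, H2-Eb1 and Cd207 divided by the FPKM of Cd74 in the same library (y axes, linear from 0, different scales) for IL-33 KO and WT, with the mean ± SD of 3 libraries in black. The 3 chain genes stay within narrow ranges, and the Cd207 ratio of IL-33 KO 1 is the lowest of the 6.

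The class II genes differed more between libraries of one genotype than between genotypes, and did so together. WT 3 was the highest library for all 5 of them, and IL-33 KO 1 lay above both WT 1 and WT 2 for all 5. Over all 14222 other genes with a mean of at least 1 CPM, 15.9% were highest in WT 3. The mean class II profile, on the log2 CPM scale relative to the 6-library mean, was 0.16, 0.05 and -0.20 in the knockout libraries and -0.10, -0.22 and 0.32 in WT. H2-Aa, H2-Ab1, H2-Eb1 and Cd74 each deviated from the mean profile of the other class II members by a root mean square of 0.0749 to 0.134. Ciita shared their high libraries, WT 3 and IL-33 KO 1, but had its lowest value in WT 2, where the lowest library was IL-33 KO 3 for H2-Aa and H2-Eb1 and WT 1 for H2-Ab1 and Cd74. Its distance was 0.281. The marker genes were at distances of 0.282 (Itgax) to 0.806 (Cd207), so Itgax was about as near as Ciita. These distances describe 6 libraries that all genes share and were not tested.

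**Figure D4:**
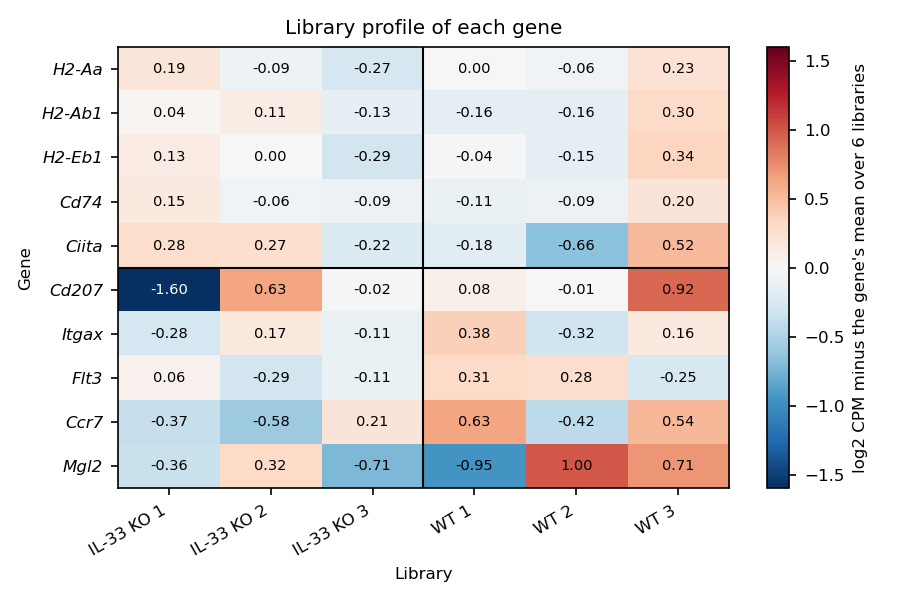
Log2 CPM of each gene (rows) in each library (columns) minus that gene's mean over the 6 libraries, as colour and printed value, with lines between class II and marker genes and between genotypes. The class II rows share a high WT 3 column, and Cd207 in IL-33 KO 1 is the lowest cell.

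Markers of the presenting cells were scarce, and each had a lower mean in IL-33 KO without passing the test. Cd207, Mgl2 and Ccr7 varied widely, the highest library standing at 6.55, 4.06 and 2.44 times the lowest in CPM. For Itgax and Flt3 it stood at 1.63 and 1.55 times the lowest. Cd207, langerin, the lectin that forms the Birbeck granules of Langerhans cells (ENSMUSG00000034783, chromosome 6, 83671207 to 83677857, minus strand), was counted at 12, 64 and 35 reads in IL-33 KO 1, 2 and 3 and 36, 39 and 84 reads in WT 1, 2 and 3. These are 0.506, 2.70 and 1.69 CPM in the knockout libraries and 1.81, 1.70 and 3.31 CPM in the WT libraries. IL-33 KO 1 stood apart below, with an exact Poisson 95% interval of 0.261 to 0.884 CPM, which covers counting error only and does not reach the interval of any other library (lowest bound 1.18 CPM, in IL-33 KO 3). In edgeR the log2 fold change was -0.48 ± 0.55 (SE, adjusted p 0.793), and single libraries carried most of it: without IL-33 KO 1 it was -0.05, without WT 3 it was -0.11, and without IL-33 KO 2 it was -1.07 (adjusted p of 0.992, 0.944 and 0.787). IL-33 KO 1 was also the library with the lowest keratinocyte and the highest hair follicle sum (28624 and 22105 CPM), and the part of that in its Cd207 level was not tested. Epcam, an adhesion gene of Langerhans cells that skin epithelium also expresses, stood at 139 CPM in IL-33 KO 1, inside the range of the other libraries.

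Itgax, the CD11c integrin chain of dendritic cells and some macrophages (ENSMUSG00000030789, chromosome 7, 128129547 to 128150656, plus strand), was at 9.91, 13.5 and 11.1 CPM in the knockout libraries and 15.7, 9.65 and 13.5 CPM in the WT libraries. WT 1 was the highest library and WT 2 the lowest, so the WT libraries enclosed those of IL-33 KO. Its log2 fold change was -0.17 ± 0.22 (edgeR adjusted p = 0.818), with a 95% interval of the ratio of 0.631 to 1.26. Flt3, the receptor for the growth factor on which conventional dendritic cells depend (ENSMUSG00000042817, chromosome 5, 147330741 to 147400489, minus strand), had 1.64, 1.27 and 1.45 CPM in the knockout libraries and 1.97, 1.92 and 1.30 CPM in the WT libraries, from 30 to 44 counts per library. WT 3 fell among the knockout libraries, below WT 1 and WT 2. The log2 fold change of -0.25 ± 0.29 had an adjusted p of 0.805 in edgeR, and the counting intervals of all 6 libraries overlapped. Its ligand gene Flt3l stood at 2.05 ± 0.236 CPM in the knockout against 2.10 ± 0.579 CPM (SD, n = 3 each; edgeR adjusted p = 0.972).

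Ccr7, the receptor that leads maturing dendritic cells into lymph vessels (ENSMUSG00000037944, chromosome 11, 99144196 to 99155077, minus strand), had 1.14, 0.970 and 1.74 CPM in the knockout libraries and 2.37, 1.09 and 2.21 CPM in the WT libraries. WT 1 and WT 3 were the high libraries, but WT 2 fell among those of IL-33 KO. The means were 1.28 ± 0.405 and 1.89 ± 0.695 CPM and the log2 fold change -0.56 ± 0.39 (SE; edgeR adjusted p = 0.679), with a 95% interval of the ratio from 0.363 to 1.27. The genes of its ligands were measured at 0.635 ± 0.249 and 0.582 ± 0.117 CPM for Ccl19 and at 37.2 ± 2.33 and 49.6 ± 16.2 CPM for Ccl21a, in the knockout and in WT, in that order (edgeR adjusted p of 0.927 and 0.618). Ccl21a has near-identical copies in the mouse genome, which makes the division of its reads uncertain.

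Mgl2, a galactose-binding lectin of dermal type 2 dendritic cells and some macrophages (ENSMUSG00000040950, chromosome 11, 70130329 to 70137550, plus strand), had a large difference for this group of genes and a wide spread within WT. It was at 1.94, 3.16 and 1.499 CPM in the knockout libraries and 1.26, 5.11 and 4.18 CPM in the WT libraries. WT 2 and WT 3 were the high libraries, and WT 1 was the lowest of all 6. In edgeR the log2 fold change was -0.68 ± 0.50 (SE, adjusted p 0.697). Without WT 1 it was -1.07, the only one of all settings run in which any of the 10 genes reached an unadjusted p under 0.05 (0.0177, adjusted 0.622), and without WT 2 it was -0.31 (adjusted p 0.950). WT 1 was also the library with the least fat, at 172 CPM summed over 8 adipocyte genes against at least 525 CPM elsewhere, and the part of that in its Mgl2 level was not tested. Cd209a and Clec10a, lectins of the same kind of dendritic cell, were likewise lowest in WT 1 and highest in WT 2, at 0.756 and 3.76 CPM for Cd209a and 6.95 and 17.8 CPM for Clec10a. Other markers of that cell kind did not share this order. Irf4 was lowest in WT 2 (2.14 CPM) and highest in IL-33 KO 1 (5.06 CPM). Sirpa was lowest in WT 1 (84.4 CPM) but highest in WT 3 (111 CPM). Mgl2 and Clec10a are close paralogs, and the sources used here do not give how reads matching both were divided.

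Other genes of the class II pathway did not pass either. Of 6 genes for other class II chains and for peptide loading, 4 were tested, 2 were higher and 2 lower in the knockout, and 0 passed in edgeR (median log2 fold change -0.17). H2-DMa, whose product exchanges the invariant chain remnant for peptide, had 15.9, 10.5 and 14.6 CPM in the knockout libraries and 15.2, 19.0 and 19.3 CPM in the WT libraries, with IL-33 KO 2 and IL-33 KO 3 below all WT libraries and IL-33 KO 1 just above WT 1 (log2 fold change -0.39 ± 0.19, adjusted p 0.584). H2-DMb2, one of the genes for its partner chain, stood at 1.63 ± 0.177 against 2.22 ± 0.839 CPM (adjusted p 0.704); it and H2-DMb1 are near copies. Of 12 genes that control class II transcription, among them the X box and Y box factors of the Rfx and Nfy families and the interferon-gamma axis, 5 were higher and 7 lower and 0 passed in edgeR. Ifngr1, a chain of the interferon-gamma receptor, was at 46.3 ± 5.62 against 58.0 ± 5.25 CPM (log2 fold change -0.32 ± 0.13, unadjusted p 0.0402, adjusted p 0.542). Nfyc, a Y box factor subunit, was at 36.1 ± 2.898 against 43.0 ± 7.12 CPM (adjusted p 0.632).

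Of 9 genes that cut and turn over antigen, 3 were higher, 6 were lower and 0 passed in edgeR. Ifi30, a lysosomal thiol reductase that opens disulfide bonds of antigens, was the 1 gene of the 9 without overlap (over all genes 13.9% had none), at 68.6, 51.8 and 67.7 CPM in the knockout libraries and 80.8, 99.6 and 69.6 CPM in the WT libraries (log2 fold change -0.41 ± 0.17, unadjusted p 0.0439, adjusted p 0.547). In FPKM, which is scaled by the total, IL-33 KO 1 at 75.1 lay above WT 3 at 74.3, so this gene overlapped. Ctss, cathepsin S, which trims the invariant chain, stood at 148 ± 12.9 against 174 ± 16.8 CPM (adjusted p 0.618). Of 6 tested costimulatory genes 3 were higher and 3 lower, and 0 passed, including Cd80 at 2.14 ± 0.422 against 2.63 ± 1.24 CPM and Cd86 at 6.26 ± 0.495 against 6.83 ± 1.30 CPM (adjusted p 0.817 and 0.861). In the class I pathway 4 of 11 genes were higher, 7 lower and 0 passed. B2m, the light chain of class I molecules, stood lower in all 3 knockout libraries, at 1416, 1426 and 1284 CPM in the knockout libraries and 1815, 1768 and 1719 CPM in the WT libraries (log2 fold change -0.36 ± 0.15, unadjusted p 0.0399, adjusted p 0.541). It was the 1 gene of the 11 without overlap, beside 13.9% of all genes. Psmb8, a subunit of the immunoproteasome, stood at 51.5 ± 6.78 against 43.9 ± 7.02 CPM (adjusted p 0.674).

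Other dendritic cell genes were split. In the list of dendritic cell subset genes, 10 of 19 were higher and 9 lower, 0 passed in edgeR, and 4 had an unadjusted p under 0.05, beside 9.02% of all genes. In that list 6 genes showed no overlap, 5 higher and 1 lower, beside 13.9% of all genes (7.46% higher and 6.47% lower). Siglech, a lectin of plasmacytoid dendritic cells, was at 2.66, 1.603 and 1.69 CPM in the knockout libraries and 0.857, 0.961 and 0.355 CPM in the WT libraries (log2 fold change 1.46 ± 0.43, unadjusted p 0.00932, adjusted p 0.440). Xcr1, the chemokine receptor of type 1 conventional dendritic cells, was at 1.56, 1.52 and 1.02 CPM in the knockout libraries and 0.705, 0.699 and 0.513 CPM in the WT libraries (log2 fold change 1.10 ± 0.34, unadjusted p 0.0123, adjusted p 0.465). All 3 knockout libraries lay above all 3 WT libraries for both, on 9 to 63 counts for Siglech and 13 to 37 for Xcr1. Zbtb46 and Irf4, transcription factor genes of conventional dendritic cells and picked after their values were seen, were higher without overlap too, at 3.37 ± 0.740 against 1.99 ± 0.338 CPM and 3.97 ± 0.984 against 2.497 ± 0.309 CPM (adjusted p 0.504 and 0.527). Further genes of the same cells had differences smaller than these. Clec9a of the type 1 cells had a log2 fold change of 0.39 ± 0.49 with overlap, Batf3 of -0.17 ± 0.45 and Itgae of 0.0040 ± 0.30. For Bst2 and Tcf4 of the plasmacytoid cells it was -0.04 ± 0.21 and 0.01 ± 0.20. Bst2 averaged 62.2 CPM in the knockout and 63.9 CPM in WT, and Tcf4 115 and 114 CPM, far above Siglech. The part of plasmacytoid cells in these Bst2 and Tcf4 levels was not tested. Irf8 of the type 1 cells was higher without overlap in CPM, at 18.9 ± 1.58 against 17.1 ± 0.290 CPM (edgeR adjusted p 0.736). In FPKM its IL-33 KO 2 value of 5.05 lay below WT 3 at 5.11, so Irf8 overlapped. The 1 gene lower without overlap was Spi1, the myeloid factor PU.1, at 21.2 ± 2.31 against 24.6 ± 1.31 CPM (log2 fold change -0.21 ± 0.13, adjusted p 0.645). In FPKM IL-33 KO 1 and IL-33 KO 3, both at 11.5, lay above WT 2 at 11.3, so Spi1 overlapped. Klf4, a factor that keratinocytes express too, was at 544 ± 90.9 against 719 ± 161 CPM (log2 fold change -0.40 ± 0.21, adjusted p 0.605) and made up most of the summed level of the list, which was lower in the knockout without overlap (906 to 1055 CPM against 1065 to 1256 CPM). The hair follicle sum was higher in the knockout, as Siglech and Xcr1 were, without overlap, and its part in them was not tested.

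Genes of the Langerhans cell niche had 6 of 13 higher, 7 lower and 0 passing in edgeR. Ly75, the DEC-205 uptake receptor of dendritic cells and thymic epithelium, was at 6.24, 6.1999 and 4.59 CPM in the knockout libraries and 4.54, 2.75 and 4.14 CPM in the WT libraries, all knockout libraries lying above all WT libraries by a small margin (log2 fold change 0.58 ± 0.25, adjusted p 0.556). It was the 1 gene of the 13 without overlap, beside 13.9% of all genes. Il34, the epidermal cytokine that keeps Langerhans cells in place, was at 10.9 ± 3.04 against 15.3 ± 3.76 CPM (adjusted p 0.601). Among 10 tested genes of migration and maturation 2 were higher, 8 lower and 0 passed. Ccl20, which draws dendritic cell precursors carrying CCR6, was at 1.31, 1.18 and 1.02 CPM in the knockout libraries and 1.86, 4.98 and 2.17 CPM in the WT libraries (log2 fold change -1.36 ± 0.42, unadjusted p 0.0117, adjusted p 0.465). Ccl22, a chemokine of mature dendritic cells, was at 3.40 ± 0.233 against 4.72 ± 1.09 CPM (adjusted p 0.591). Of 5 tested growth factor and receptor genes 1 was higher, 4 were lower and 0 passed, with Csf2ra at 17.5 ± 3.44 against 21.6 ± 4.09 CPM, Tgfb3 at 34.7 ± 6.13 against 40.8 ± 12.1 CPM (adjusted p 0.658 and 0.761) and Csf2, the gene of the cytokine GM-CSF, at 0 or 1 count per library.

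Class II genes are also expressed by macrophages and B cells, and these were measured beside them. The 11 macrophage and monocyte genes summed to 798 to 1059 CPM in the knockout and 855 to 1159.7 CPM in WT, with overlap, and 4 were higher, 7 lower and 0 passing in edgeR. The complement gene C1qa of tissue macrophages was at 90.7 ± 13.9 against 116 ± 15.2 CPM and the lysosomal gene Cd68 at 27.5 ± 3.57 against 35.6 ± 7.61 CPM (adjusted p 0.559 and 0.587). WT 3 was the highest library for this sum as for the class II genes, and the part of macrophages in the class II level was not tested. The 6 B cell genes summed to only 2.902 to 3.88 CPM in the knockout and 2.12 to 3.86 CPM in WT, with Pax5 at 0 counts in 3 of the 6 libraries. Cd79a, a signalling chain of the B cell receptor, had 0.717, 0.590 and 0.532 CPM in the knockout libraries and 0.151, 0.175 and 0.355 CPM in the WT libraries (log2 fold change 1.39 ± 0.46, unadjusted p 0.0173, adjusted p 0.487). Cd22, a B cell surface lectin, was at 1.27 ± 0.352 against 1.86 ± 0.497 CPM (adjusted p 0.652). The 5 leukocyte genes, Ptprc among them, of which 1 was higher, 4 were lower and 0 passed (smallest p for Laptm5 and Cd52, adjusted p 0.837 and 0.871), summed to 286 to 321 CPM in the knockout and 223 to 389.6 CPM in WT. The 6 T cell genes, 4 higher and 2 lower with 0 passing (smallest p for Cd4 and Cd5, adjusted p 0.606 and 0.671), summed to 25.1 to 36.0 CPM in the knockout and 23.6 to 30.6 CPM in WT.

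**Figure D5:**
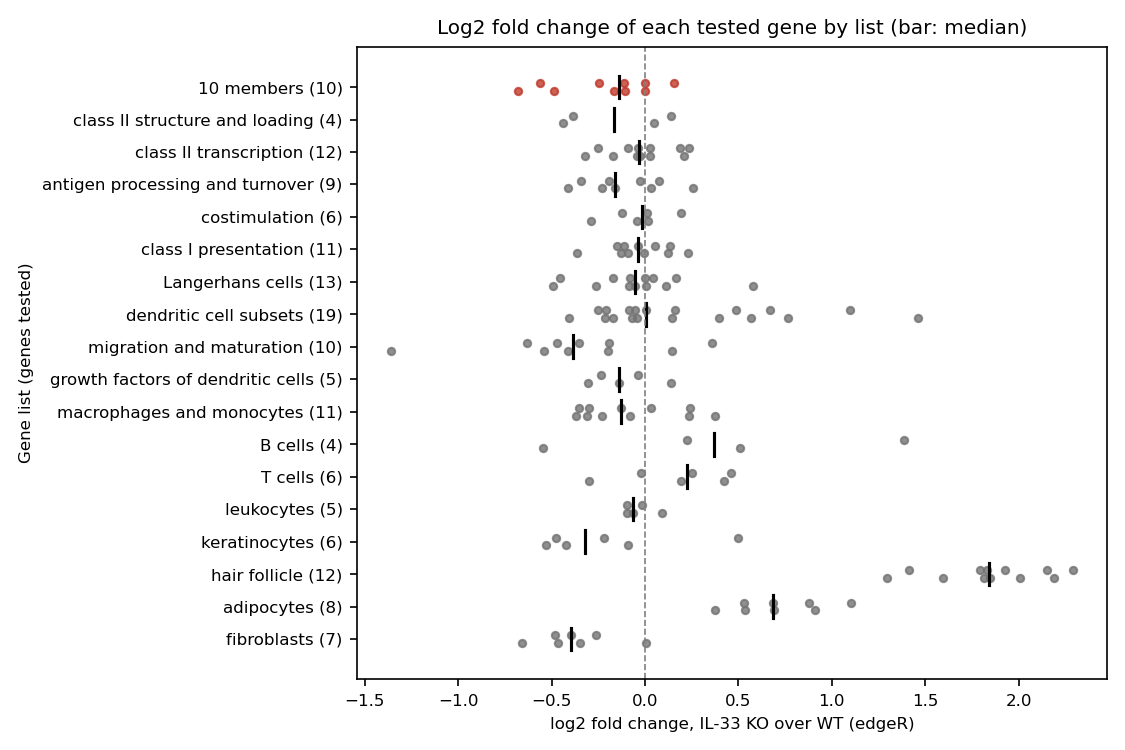
Log2 fold change of IL-33 KO over WT in edgeR (x axis) for each tested gene of each list (y axis, number tested in brackets), with a black bar at the list's median and the 10 antigen presentation genes in red. The red points lie between -0.68 and 0.16, while all 12 hair follicle genes lie at 1.30 or above; the skeletal muscle list, with a median of 4.20, is not drawn.

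Among 14222 genes with a mean of at least 1 CPM, those whose library profile lay nearest to the mean class II profile were Mtr, Tspan2, 1700049G17Rik, C1s1 and Cep120, at root mean square differences of 0.0316 to 0.0505 on the log2 scale over the 6 libraries. Mtr, for example, was at 11.9, 11.6 and 9.29 CPM in the knockout libraries and 9.83, 8.91 and 13.2 in WT, with the same order of high and low libraries as that mean. H2-Aa lay at 0.107 from the mean, which includes it, and 185 of the 14222 genes, 1.30%, were at least as near. The 14222 genes are not part of that mean, so this share favours H2-Aa. From the mean of the other class II members H2-Aa lay at 0.134. That distance falls between those of H2-DMb1 (0.124, rank 399 of the 14222) and Pdgfra (0.137, rank 601) from the full mean.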

How the data were processed

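The 3 IL-33 KO and 3 WT RNA-seq libraries were grouped by the sample titles. The authors deposited whole-number read counts per gene, used unchanged, and FPKM values, which match counts per listed gene length and column total, with relative differences of at most 2.78e-07. STAR, RSEM and mm10 are named, without versions, per the submitters' processing notes. The sources used here do not give how strand and reads matching several genes were treated. The test was edgeR 4.0.16 in R 4.3.3 on counts (filterByExpr at its defaults, TMM, quasi-likelihood F test, two-sided, Benjamini-Hochberg over 15720 genes). Intervals of ratios are at 95% from the F statistic. Of the 164 listed symbols 3 were matched by identifier, since the table gives an older symbol for Adgre1 and dates for March1 and March8. The alternatives used other scalings and filters, DESeq2 1.42.0, limma 3.58.1 (voom, and limma-trend on log2(FPKM + 1) or log2(FPKM + 0.1)), the replicate block, and each library left out. The fits were run on simulated data with the same dispersion for all genes. Changes were planted only in genes above a minimum mean CPM, so that run does not cover scarcer genes such as Flt3. No 2 libraries of a genotype agreed within sampling noise. The members and lists were chosen with earlier results of these data known. The members are all named. Of each list, the genes that passed or otherwise the 2 with the smallest p are named, and of genes with a class II-like profile the 5 nearest. Ligands, subset markers and others named beside a member were chosen for their role. Figures were drawn with matplotlib 3.10.9.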

Additional observations from a re-analysis of the deposited data

How the results depend on the processing

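The count of antigen presentation genes that passed was 0 of 10 in every setting run, or 0 of 8 where the FPKM filter removed Ccr7 and Flt3. The median log2 fold change of the 10 stayed between -0.19 and -0.03. Over all genes, 3 passed in edgeR, 5 with upper quartile scaling, 5 with total counts, 33 without a filter, 5 with 1 CPM in 3 libraries, 233 in DESeq2, 11 in limma-voom, 15 and 11 with filtered log2(FPKM + 1) and log2(FPKM + 0.1), 6 with unfiltered log2(FPKM + 1), and 2 to 24 with a library left out (with 10 on leaving out IL-33 KO 2, 5 on leaving out IL-33 KO 3 and 24 on leaving out WT 3). H2-Ab1 and Cd74, whose log2 fold changes were nearest to 0, turned to 0.0019 and 0.0043 with RLE scaling, 0.014 and 0.017 with upper quartile scaling, 0.067 and 0.076 with total counts, 0.00053 and 0.0031 with a filter of 1 CPM in 3 libraries, 0.013 and 0.0045 with limma-voom, 0.092 and 0.085 with log2(FPKM + 1) with a filter on low values, 0.093 and 0.085 with log2(FPKM + 0.1) with that filter, 0.092 and 0.085 with log2(FPKM + 1) without it, 0.011 and 0.0030 with the replicate block. Cd74 also turned without a filter (0.0015) and in DESeq2 (0.0019). With each library left out in turn the log2 fold change ran from -0.079 to 0.17 for H2-Ab1, -0.081 to 0.11 for Cd74, -0.21 to 0.045 for H2-Eb1 and -0.080 to 0.54 for Ciita, the highest value being without WT 3 in each. Without both IL-33 KO 1 and IL-33 KO 3, a setting chosen after seeing the data for their muscle transcripts, which assumes that the lone IL-33 KO library varies like WT, 0 genes passed in edgeR (633 of 16533 at an unadjusted p under 0.05), and H2-Ab1, Cd207 and Itgax turned to 0.11, 0.24 and 0.069. Total counts moved the median of all genes from -0.01 to 0.07. The replicate numbers did not pair the libraries: same-numbered libraries had correlations of deviations of -0.26, -0.12 and -0.38, 0 of 3 matched their own number best, and with the replicate block 2 genes passed in place of 3. Cd207, Ccr7, Flt3 and Mgl2 had 12 to 117 counts per library. Their 95% intervals of the ratio were 0.296 to 1.72, 0.363 to 1.27, 0.527 to 1.35 and 0.280 to 1.40, in that order. For each gene, ratios inside its own interval stay compatible with these libraries. For Mgl2 the libraries spread beyond counting error (95% intervals of 0.815 to 1.86 CPM in WT 1 and 4.23 to 6.12 CPM in WT 2), whereas the counting intervals of Flt3 all overlapped. No member was compared within a sequencing batch, as the labels name none.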
